A study of Mus musculus with 10 samples.

Results

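The genes described here are 10 parts of the cytokine receptor machinery of a leukaemia line: the receptor chains Csf2rb, Csf2rb2, Il3ra, Il7r, Crlf2, Il2rg and Il2ra and the kinases Jak1, Jak2 and Jak3. They were picked by symbol from a count table of 29955 genes, and all 10 were found there and passed the filter on low counts. The RNA of 10 samples of a murine Ph+ acute lymphoblastic leukaemia line was sequenced. Ph+ refers to the Philadelphia chromosome, which yields the fusion kinase BCR-ABL1, here as p185. Cells had been grown out under dasatinib, an inhibitor of the ABL and SRC family kinases, at steps given as multiples of its IC90, and replated at the next step. There were 3 libraries of dasatinib 16x cells, 3 of dasatinib 1x cells, 1 of cells carried with the solvent DMSO to 16x, 1 of DMSO 1x cells and 2 of untreated parental cells. The parental and both DMSO groups, 4 libraries, are called drug-free below.

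All groups carry BCR-ABL1 and were grown in RPMI medium with serum, glutamine and β-mercaptoethanol, and the growth protocol lists no added cytokine. The labels do not say whether dasatinib was present at harvest. Everything comes from a single line, and each DMSO group is a single library. The dasatinib libraries are labelled biological replicates A, B and C, and the parental ones only replicates A and B. The labels do not say whether libraries of a group came from separate cultures. The p-values thus measure the spread between these libraries, which may be technical. In bulk RNA, fewer cells of a type and less RNA per cell cannot be told apart.

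Cytokine receptors of this family have no kinase of their own. Their chains carry JAK kinases, which a bound cytokine brings together, and the active JAKs phosphorylate STAT proteins that move to the nucleus and switch on genes, among them inhibitors of the same receptors. Precursor B cells of the mouse normally depend on IL-7, whose receptor joins the IL-7 receptor α chain (Il7r) with the common γ chain (Il2rg), and BCR-ABL1 can drive STAT5 in such cells without a cytokine.

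Total counts were 29049760 to 45813092 a library. Levels are CPM, counts scaled to a common library size with TMM, and changes are log2 ratios with standard errors (SE). A gene is called where its p-value from edgeR's quasi-likelihood test, adjusted by Benjamini and Hochberg over all tested genes, is under 0.05, and all adjusted p-values below are of that kind. All 14 markers of pro-B and pre-B cells were detected, with summed levels of 3842 to 3979 CPM in dasatinib 16x, 3942 to 4158 CPM in dasatinib 1x and 4131 to 4487 CPM in drug-free libraries, which fits the label.

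Dasatinib 16x cells had more RNA of the β chains of the IL-3 receptor family than drug-free cells, while none of the 10 genes was called lower (2 were lower at an unadjusted p under 0.05 in edgeR's test, and DESeq2 called 0 lower). Csf2rb2, Csf2rb and Il2rg, 3 of 10, were called higher, against 7.79% of all 12282 tested genes called higher, 8.33% called lower and 16.1% called in all. Dasatinib 1x cells gave no call among the 10 against drug-free cells, where 1.96% of tested genes were called, 0.822% higher and 1.14% lower. Without adjustment, 5 of the 10 had a p-value under 0.05 in edgeR's test there, and DESeq2 called 0. The dasatinib 1x result depended on the reference and on the fit. The other references were run in a fit of the 5 groups, whose spread comes only from libraries of the same label. For Il7r the change was 0.38 ± 0.29 against the drug-free class and 0.64 ± 0.05 against the mean of the 3 groups. Against the mean of the parental and both DMSO groups, Il7r (0.64), Il3ra (0.98), Crlf2 (0.74), Il2rg (0.17) and Csf2rb2 (0.28) were called higher. Jak1 (-0.08) was called lower there. Of all 12993 tested genes, 1921 were called higher and 1659 lower in that setting. Against the parental libraries alone, only Il2ra was called, lower at -1.05, beside 363 of 12993 tested genes called higher and 370 lower. Between dasatinib 16x and 1x cells, Csf2rb2 and Csf2rb were called higher, 2 of 10, against a background of 2.13%, made up of 1.21% higher and 0.928% lower. The median log2 change of the 10 was 0.04, 0.17 and -0.03 in these comparisons, and that of all tested genes was -0.004, -0.006 and 0.002.

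**Figure D1:**
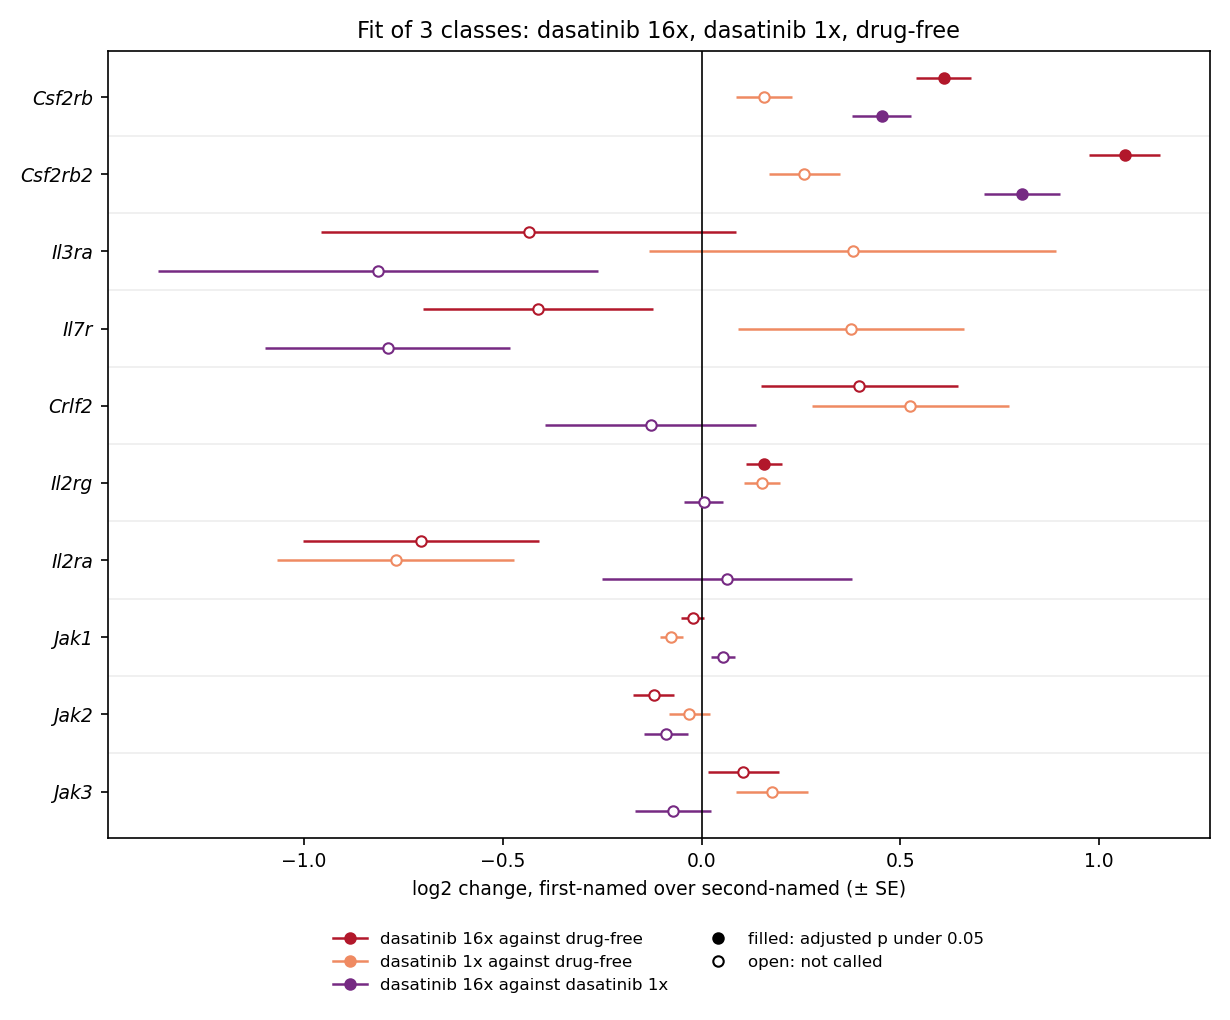
Log2 change of each gene on the horizontal axis with its SE, in the fit of 3 classes, with filled points for genes called at an adjusted p under 0.05. Filled points lie at Csf2rb and Csf2rb2 for dasatinib 16x against drug-free and against dasatinib 1x, and at Il2rg for dasatinib 16x against drug-free, and the SE bars of Il3ra, Il7r and Crlf2 are wide.

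Against the single DMSO library of the same step, many more calls were made, and the DMSO lines themselves had moved from the parental line. In dasatinib 16x against DMSO 16x, 6 of 10 were higher (Csf2rb, Csf2rb2, Il3ra, Il7r, Crlf2 and Il2rg) and 1 was lower (Jak2), beside 34.8% of 12993 tested genes called, 17.9% higher and 16.9% lower. For dasatinib 1x against DMSO 1x the calls were Crlf2 and Il7r, both higher, beside 13.6% of tested genes (6.65% higher, 6.99% lower). DMSO 16x against parental gave 4 of 10 lower (Il7r, Crlf2, Il3ra and Il2ra) and none higher, beside 30.1% (14.6% higher, 15.5% lower). DMSO 1x against parental gave Il7r alone, lower, beside 6.06% (3.29% higher, 2.77% lower). These tests take the spread from the dasatinib and parental replicates and assume that the lone DMSO libraries vary alike. The comparisons share libraries, so their values are given side by side only.

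The step change under dasatinib (16x minus 1x) was also set against the step change in DMSO. Csf2rb2 and Crlf2 were called higher in that difference, 2 of 10, beside 6.36% of all tested genes, 5.06% higher and 1.29% lower.

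**Figure D2:**
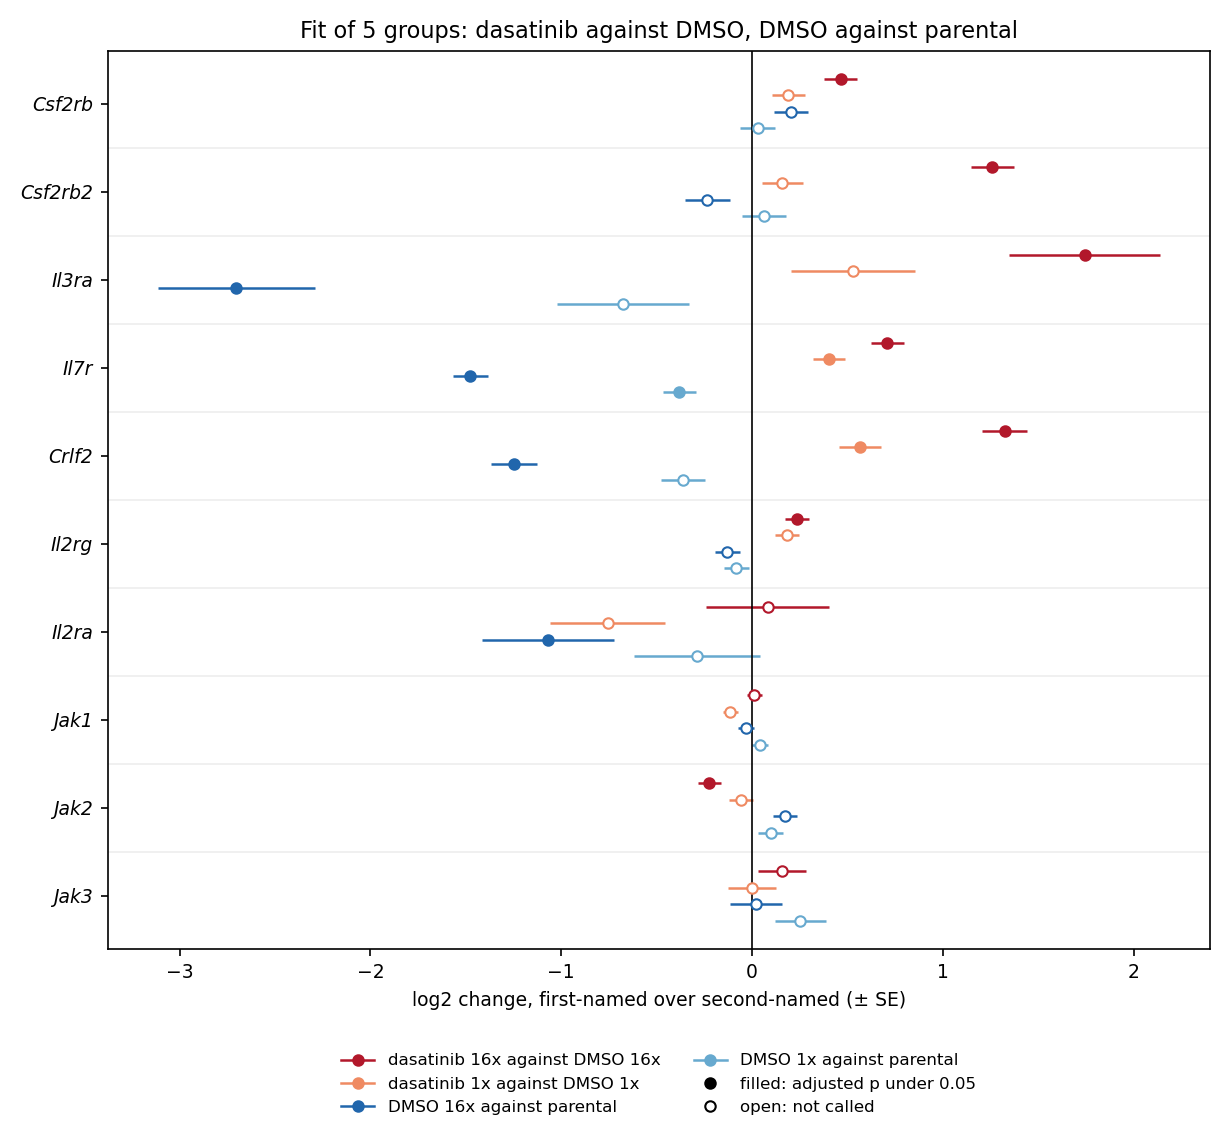
Log2 change of each gene with its SE on the horizontal axis, in the fit of 5 groups, with filled points for calls at an adjusted p under 0.05. Il3ra, Il7r and Crlf2 lie right of 0 in dasatinib 16x against DMSO 16x and left of 0 in DMSO 16x against parental, while Jak1 and Jak3 have no filled point.

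Per kilobase of annotated exon, which allows levels of different genes to be compared, Jak1 stood highest at a mean of 56.5 CPM per kb over the 10 libraries, and its lowest library lay above every library of the other members. Il7r (37.1), Crlf2 (32.4), Il2rg (21.2) and Csf2rb (19.5) followed, and the ranges of these 4 genes over the libraries overlapped. Jak2 came next at 9.45 CPM per kb and Csf2rb2 at 5.49, with no overlap between them. Jak3 (1.69), Il3ra (1.45) and Il2ra (0.911) were lowest, and their ranges overlapped. Lengths are from GENCODE vM21, while the counts were made against mm9, so this scale is approximate.

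**Figure D3:**
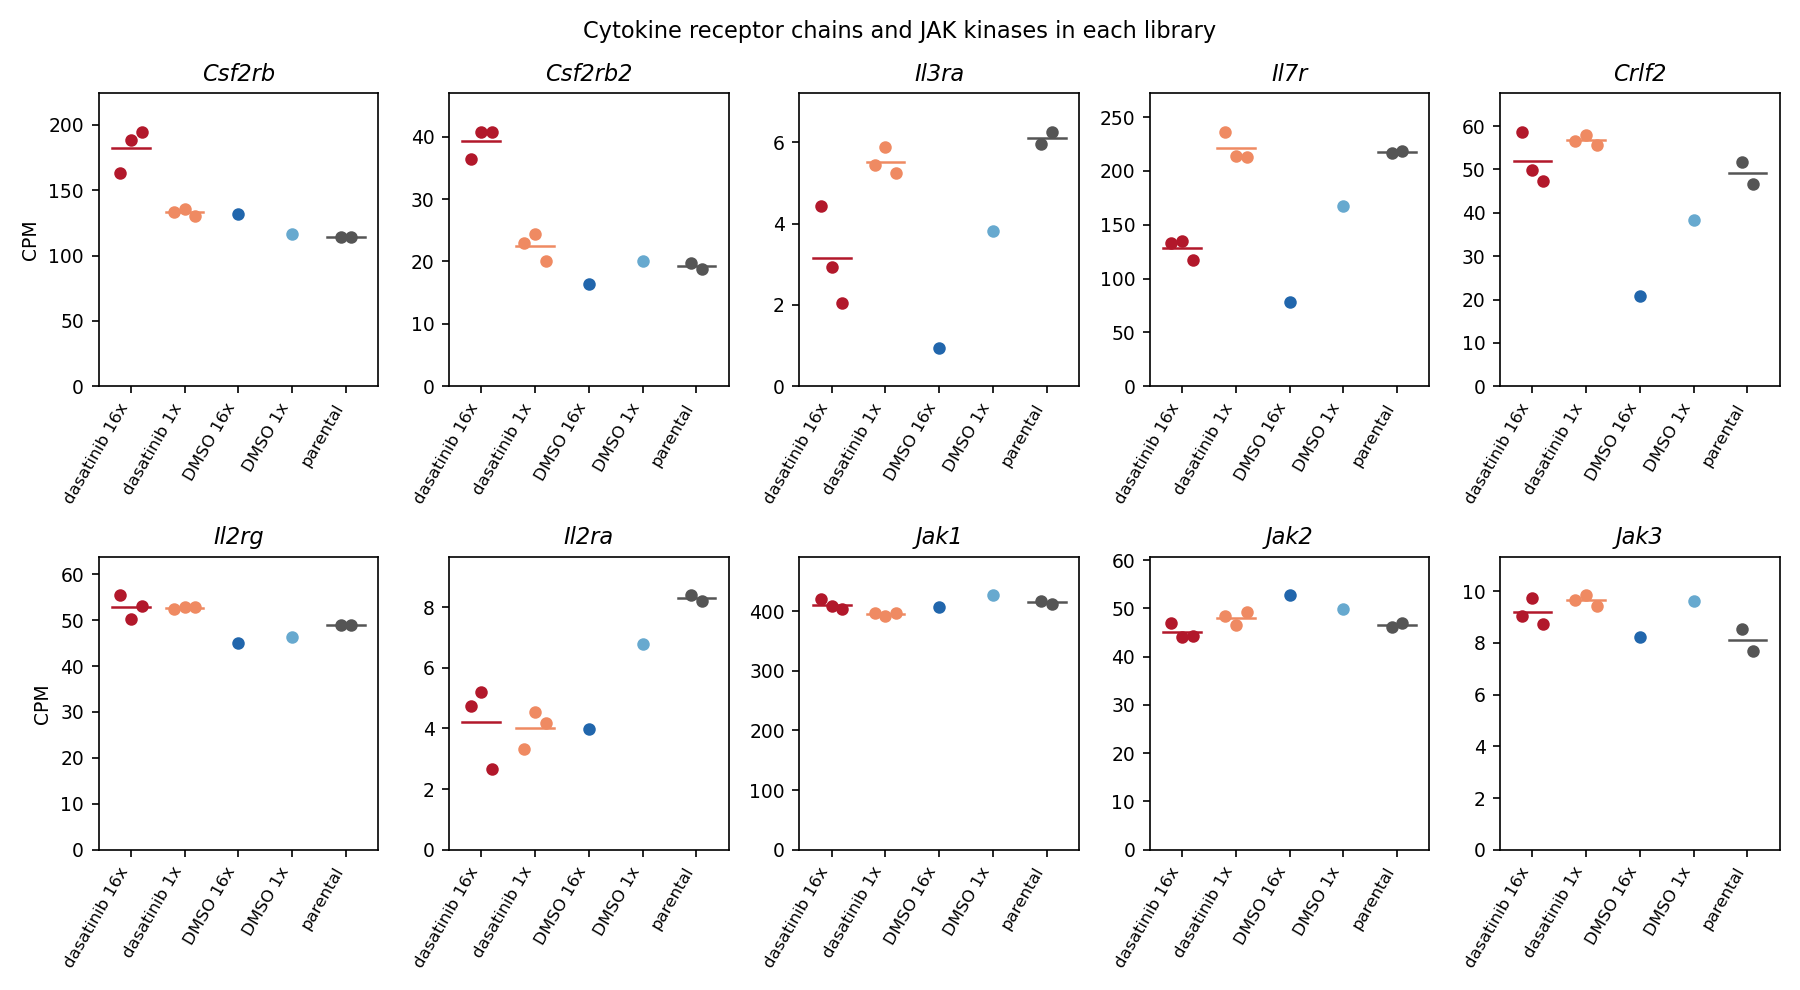
Level of each gene in CPM on a vertical axis from 0, with 1 point per library and a line at the mean of groups with more than 1 library. Csf2rb and Csf2rb2 are highest in the 3 dasatinib 16x libraries, Il7r, Il3ra and Crlf2 are lowest in the DMSO 16x library, and Jak1 spans 392 to 427 CPM over all groups.

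Csf2rb encodes the common β chain, which signals for IL-3, IL-5 and GM-CSF, and Csf2rb2 encodes the second β chain of the mouse, which serves IL-3 alone. Csf2rb2 stood at 36.4, 40.8 and 40.7 CPM in dasatinib 16x libraries A, B and C, against 22.9, 24.3 and 20.1 CPM in dasatinib 1x libraries A, B and C. The drug-free libraries had 16.4 CPM in DMSO 16x, 20.1 CPM in DMSO 1x and 19.7 and 18.8 CPM in parental A and B. Every dasatinib 16x library lay above every other library, while the lowest dasatinib 1x library lay close to the highest drug-free one. Dasatinib 16x cells averaged 39.3 ± 2.51 CPM (SD, n = 3) and drug-free cells 18.8 ± 1.64 CPM (SD, n = 4), a log2 change of 1.06 ± 0.09 (SE, adjusted p = 0.000234), or 2.09-fold. Against dasatinib 1x cells the change was 0.81 ± 0.10 (adjusted p = 0.00624). It was called in each of the 17 other settings of the first comparison and in each of the 15 of the second.

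Csf2rb followed with a smaller change. Its levels were 163, 189 and 195 CPM in dasatinib 16x libraries A, B and C and 133, 135 and 130.4 CPM in dasatinib 1x. They were 132 CPM in DMSO 16x, 116 CPM in DMSO 1x and 114 CPM in both parental libraries. The 3 dasatinib 16x libraries were again the highest, and the DMSO 16x library lay within the range of the dasatinib 1x libraries, apart from the other drug-free ones. The log2 change was 0.61 ± 0.07 against drug-free cells (adjusted p = 0.000779), called in all 17 other settings. It was 0.45 ± 0.07 against dasatinib 1x cells (adjusted p = 0.0184), a call that was lost on leaving out dasatinib 16x B or C or any of the 3 dasatinib 1x libraries, with adjusted p-values of 0.0555 to 0.107.

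Dasatinib 16x against DMSO 16x gave log2 changes of 1.26 ± 0.11 for Csf2rb2 (adjusted p = 2.97e-06) and 0.47 ± 0.09 for Csf2rb (adjusted p = 0.00231). Dasatinib 1x against DMSO 1x gave 0.16 ± 0.11 for Csf2rb2 (adjusted p = 0.406) and 0.19 ± 0.09 for Csf2rb (adjusted p = 0.206). The DMSO 16x level of Csf2rb2 lay below that of DMSO 1x, and the difference between the step changes was 1.10 ± 0.15 (adjusted p = 0.00119), called in all 11 other settings. For Csf2rb that difference was 0.28 ± 0.12 (adjusted p = 0.264), and it was called only without dasatinib 16x A (0.35 ± 0.06, adjusted p = 0.00297).

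The β chain genes also differed from each other in how far they moved. Csf2rb2 had 22.3, 21.6 and 20.9 counts per 100 Csf2rb counts in dasatinib 16x libraries A, B and C and 17.2, 17.97 and 15.4 in dasatinib 1x. The drug-free libraries had 12.4 in DMSO 16x, 17.2 in DMSO 1x and 17.2 and 16.5 in parental A and B. The dasatinib 16x libraries did not overlap with any other, and the DMSO 16x library was the lowest. The genes are close copies: 18.4% of the 50-base words in annotated Csf2rb2 transcripts also occur in those of Csf2rb, and the counting could split or drop reads from such stretches, so the level of each is uncertain.

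**Figure D4:**
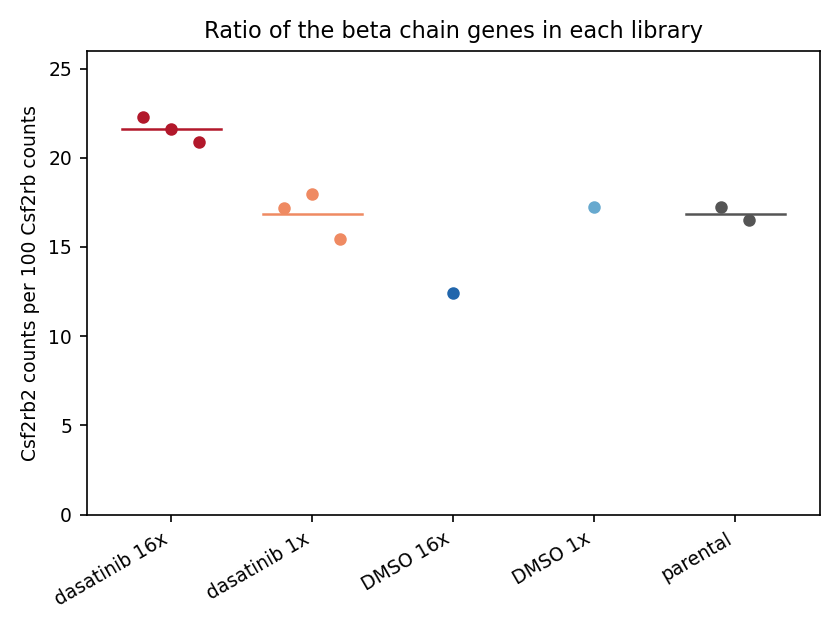
Counts of Csf2rb2 per 100 counts of Csf2rb on a vertical axis from 0, with 1 point per library and a line at the mean of groups with more than 1 library. The dasatinib 16x libraries lie at 20.9 to 22.3, above all others, and the DMSO 16x library is lowest at 12.4.

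The sequence before the start of Csf2rb2 is shown because this gene had the largest change of the 10 in dasatinib 16x against drug-free cells. It is the 250 bases upstream of the RefSeq start site in GRCm38.p6, chr15:78305722-78305971, minus strand. The letters TTCNNNGAA, a form that STAT proteins are known to bind, are in capitals and begin 15 bases before the start site.
Csf2rb2: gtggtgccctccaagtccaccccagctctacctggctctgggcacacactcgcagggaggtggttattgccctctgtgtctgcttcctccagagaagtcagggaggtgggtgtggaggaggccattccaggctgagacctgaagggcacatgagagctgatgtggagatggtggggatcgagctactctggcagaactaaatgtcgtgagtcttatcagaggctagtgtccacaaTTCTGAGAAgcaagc
The only other match among the 9 members in the table lay 142 bases before the RefSeq start of Il7r, in a stretch that GENCODE transcripts also cover. Its 30 bases at chr15:9529999-9530028, minus strand, are given for comparison, with the match in capitals.
Il7r: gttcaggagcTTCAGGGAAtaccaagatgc
The motif is its own reverse complement and was searched after the expression values were known. It occurs in 7.02% of 32851 promoters of that length, so a match is a description of the letters and not a site of binding. GTAAACA, which FOXO proteins bind, and CGGAAGT, an ETS motif, were searched on both strands and are in 3.17% and 4.92% of promoters and in none of the 9. No entry for Csf2rb was used here.

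Il3ra, the chain that gives the IL-3 receptor its specificity, was scarce and did not move with the β chains. It had 4.44, 2.94 and 2.05 CPM in dasatinib 16x libraries A, B and C (201, 120 and 86 counts), against 5.43, 5.89 and 5.25 CPM in dasatinib 1x. The drug-free levels were 0.939 CPM in DMSO 16x (35 counts), 3.82 CPM in DMSO 1x and 5.95 and 6.26 CPM in parental A and B. All dasatinib 16x libraries lay below all dasatinib 1x and parental ones and above the DMSO 16x one. Against the drug-free class the log2 change was -0.43 ± 0.52 (adjusted p = 0.623), and against dasatinib 1x cells -0.81 ± 0.55 (adjusted p = 0.545).

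The reference decided the sign for this gene. Il3ra was lower in dasatinib 16x cells than in parental cells alone, at -0.96 ± 0.25 (adjusted p = 0.0172), and higher than in the DMSO 16x library, at 1.74 ± 0.39 (adjusted p = 0.00581). DMSO 16x against parental gave -2.70 ± 0.41 (adjusted p = 0.000567). In the fit of 5 groups dasatinib 16x against dasatinib 1x was called too, at -0.81 ± 0.23 (adjusted p = 0.0398). Csf2ra, the α chain that pairs with Csf2rb for GM-CSF and lies outside the rule for named genes, was lower in dasatinib 16x than in drug-free cells at -0.42 ± 0.11 (adjusted p = 0.0337), with levels of 7.13 to 8.96 against 9.39 to 11.8 CPM.

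Il7r, the IL-7 receptor α chain that also takes part in the TSLP receptor, had its lowest levels in the 16x lines of both kinds. It had 133, 135 and 117 CPM in dasatinib 16x libraries A, B and C, against 236, 214 and 213 CPM in dasatinib 1x. The drug-free libraries had 78.5 CPM in DMSO 16x, 167 CPM in DMSO 1x and 216 and 219 CPM in parental A and B. Dasatinib 16x libraries thus lay between the DMSO libraries, and the dasatinib 1x libraries overlapped with the parental ones. Since the drug-free class spanned 78.5 to 219 CPM, the change against it was -0.41 ± 0.29 (adjusted p = 0.371), and against dasatinib 1x cells it was -0.79 ± 0.31 (adjusted p = 0.252), neither called.

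Within the fit of 5 groups, whose spread comes only from libraries of the same label, the same difference between dasatinib 16x and 1x was -0.79 ± 0.06 for Il7r (adjusted p = 3.56e-05). With the parental libraries alone as reference, dasatinib 16x cells were lower at -0.77 ± 0.06 (adjusted p = 3.37e-05). Without the DMSO 16x library, dasatinib 16x was called lower than drug-free at -0.65 ± 0.11 (adjusted p = 0.00367). Against DMSO 16x the dasatinib 16x cells were higher at 0.71 ± 0.09 (adjusted p = 0.000157), and dasatinib 1x cells were higher than DMSO 1x at 0.40 ± 0.08 (adjusted p = 0.0111).

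Among the 8 comparisons the largest change of Il7r was in DMSO 16x against parental, at -1.48 ± 0.09 (adjusted p = 2.76e-06). DMSO 1x against parental gave -0.38 ± 0.09 (adjusted p = 0.0345). The second call was lost on leaving out parental A or B or dasatinib 1x B or C, with adjusted p-values up to 0.173. The difference between the step changes under dasatinib and in DMSO was 0.31 ± 0.12 for Il7r (adjusted p = 0.19), and of 11 other settings only the one leaving out dasatinib 16x C gave a call (0.36 ± 0.09, adjusted p = 0.0261).

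Foxo1 and the globin gene Hbb-b1 are given beside Il7r, and both were named after their values were seen. In DMSO 16x, where Il7r was lowest, Foxo1 was lowest and Hbb-b1 highest. Between dasatinib 16x and 1x, however, the levels of Foxo1 overlapped while those of Il7r did not. Foxo1, a transcription factor that is known to activate Il7r, had 219.9 to 237 CPM in dasatinib 16x, 234 to 247 CPM in dasatinib 1x, 128 CPM in DMSO 16x, 210.1 CPM in DMSO 1x and 273 and 275 CPM in parental libraries. It was lower in DMSO 16x than in parental cells at -1.11 ± 0.06 (adjusted p = 5.96e-08), and its change between dasatinib 16x and 1x was -0.07 ± 0.23 (adjusted p = 0.93). The erythroid and megakaryocytic markers summed to 17.7 to 27.8 CPM in dasatinib 16x, 5.00 to 6.67 CPM in dasatinib 1x, 36.6 CPM in DMSO 16x, 12.96 CPM in DMSO 1x and 6.16 to 6.36 CPM in parental libraries. Hbb-b1 alone made 16.1 to 26.5 CPM of the sum in dasatinib 16x and 34.4 CPM in DMSO 16x, while the defining marker Gata1 had at most 0.241 CPM in any library. Their part in the result was not tested.

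Crlf2 encodes the TSLP receptor chain that pairs with the IL-7 receptor α chain and is overexpressed in a class of human lymphoblastic leukaemia. It had 58.7, 49.95 and 47.3 CPM in dasatinib 16x libraries A, B and C, against 56.7, 57.9 and 55.7 CPM in dasatinib 1x. The drug-free levels were 20.8 CPM in DMSO 16x, 38.3 CPM in DMSO 1x and 51.8 and 46.7 CPM in parental A and B. Dasatinib 16x and parental libraries overlapped, and both DMSO libraries lay below every other library. Against the drug-free class the log2 change was 0.40 ± 0.25 in dasatinib 16x (adjusted p = 0.313) and 0.53 ± 0.25 in dasatinib 1x (adjusted p = 0.274).

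Crlf2 was called in 3 of the 4 comparisons with a single DMSO library. Dasatinib 16x was higher than DMSO 16x at 1.32 ± 0.12 (adjusted p = 1.07e-05), and dasatinib 1x was higher than DMSO 1x at 0.57 ± 0.11 (adjusted p = 0.00702). DMSO 16x was lower than parental at -1.25 ± 0.12 (adjusted p = 2.90e-05), while DMSO 1x against parental gave -0.36 ± 0.11 (adjusted p = 0.0984). The difference between the step changes was 0.76 ± 0.15 (adjusted p = 0.0174), and it missed the threshold without dasatinib 1x A or C (adjusted p = 0.0507 and 0.0510).

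Crlf2 lies on mouse chromosome 5, whose genes moved together in these libraries. In DMSO 16x against parental the median log2 change of 686 tested chromosome 5 genes was -0.46, with 29 called higher and 466 lower, while that of all tested genes was -0.01. The chromosome's median was 0.54 in dasatinib 16x against DMSO 16x, 0.24 in dasatinib 1x against DMSO 1x, -0.16 in DMSO 1x against parental and 0.29 in the difference of step changes. Crlf2 moved further than that median in each of these. Against drug-free cells the median was 0.22 in both dasatinib 16x and 1x, where Crlf2 gave 0.40 and 0.53. In dasatinib 16x against 1x the median was 0.0081 and Crlf2 gave -0.13. What the chromosome contributed was not tested. On chromosome 15, which holds Il7r, Csf2rb and Csf2rb2, and on chromosome 14, which holds Il3ra, the medians stayed between -0.04 and 0.04 in all 8 comparisons.

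Il2rg, the common γ chain shared by the receptors of IL-2, IL-4, IL-7, IL-9, IL-15 and IL-21, barely varied. It had 55.4, 50.2 and 53.1 CPM in dasatinib 16x libraries A, B and C and 52.4, 52.8 and 52.9 CPM in dasatinib 1x. The drug-free levels were 45.0 CPM in DMSO 16x, 46.3 CPM in DMSO 1x and 49.0 CPM in both parental libraries. All 6 dasatinib libraries lay above all 4 drug-free ones, by a narrow margin. The log2 change in dasatinib 16x against drug-free was 0.16 ± 0.05 (adjusted p = 0.0439), and 10 of 17 other settings lost the call, with adjusted p-values up to 0.182. In dasatinib 1x against drug-free it was 0.15 ± 0.05 (adjusted p = 0.127), and in dasatinib 16x against DMSO 16x it was 0.24 ± 0.06 (adjusted p = 0.0100). A read-through gene model on the same strand shares 30.5% of its exon bases, so its level depends on how such reads were counted.

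Il2ra encodes the IL-2 receptor α chain, a known target of STAT5, and its partner gene Il2rb had no count in any library. Il2ra had 4.75, 5.19 and 2.67 CPM in dasatinib 16x libraries A, B and C, against 3.31, 4.56 and 4.17 CPM in dasatinib 1x. The drug-free levels were 3.97 CPM in DMSO 16x, 6.79 CPM in DMSO 1x and 8.39 and 8.22 CPM in parental A and B. All 6 dasatinib libraries lay below the parental and DMSO 1x ones, and the DMSO 16x library lay among them. Against drug-free cells the log2 change was -0.71 ± 0.30 in dasatinib 16x (adjusted p = 0.138) and -0.77 ± 0.30 in dasatinib 1x (adjusted p = 0.207).

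With the parental libraries alone as reference, Il2ra was called lower in dasatinib 16x at -0.99 ± 0.24 (adjusted p = 0.0154) and in dasatinib 1x at -1.05 ± 0.24 (adjusted p = 0.0389). DMSO 16x was lower than parental too, at -1.07 ± 0.35 (adjusted p = 0.0426), but without parental A or B or dasatinib 1x B or C, and without the filter on low counts, the adjusted p was 0.0550 to 0.116.

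Of the 10 genes, Jak1 and Jak2 spanned the narrowest log2 ranges over the libraries. Jak1, which serves the IL-2 receptor family chains and the IL-7 receptor, had 419.9, 408 and 403 CPM in dasatinib 16x libraries A, B and C, against 396, 392 and 397 CPM in dasatinib 1x. The drug-free levels were 407 CPM in DMSO 16x, 427 CPM in DMSO 1x and 417 and 413 CPM in parental A and B. Its log2 change was -0.02 ± 0.03 in dasatinib 16x (adjusted p = 0.647) and -0.08 ± 0.03 in dasatinib 1x (adjusted p = 0.198) against drug-free cells.

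Jak2, the kinase bound by the β chains and by Crlf2, had 44.0 to 47.1 CPM in dasatinib 16x, 46.5 to 49.2 CPM in dasatinib 1x and 46.2 to 52.7 CPM in drug-free libraries. Of the 8 comparisons, dasatinib 16x against DMSO 16x was called for it, at -0.22 ± 0.06 (adjusted p = 0.0119), where DMSO 16x was its highest library. Jak2 was also called lower in dasatinib 16x cells with both DMSO libraries as reference (-0.19 ± 0.05, adjusted p = 0.0091) and with the mean of the parental, DMSO 1x and DMSO 16x groups (-0.14 ± 0.04, adjusted p = 0.0183). DMSO 16x was called higher than parental without dasatinib 16x A or B (adjusted p = 0.0344 and 0.0378). Jak3, the partner of the common γ chain, had 8.75 to 9.75 CPM in dasatinib 16x, 9.42 to 9.84 CPM in dasatinib 1x and 7.67 to 9.63 CPM in drug-free libraries. No comparison called Jak3, whose log2 change was 0.11 ± 0.09 in dasatinib 16x (adjusted p = 0.468) and 0.18 ± 0.09 in dasatinib 1x (adjusted p = 0.302), and a neighbouring gene on the same strand shares 7.55% of its exon bases.

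Other genes of the pathway were read from lists. Their counts in dasatinib 16x against drug-free cells stand beside 7.79% of all tested genes called higher and 8.33% lower, and those against DMSO 16x beside 17.9% and 16.9%. Of 20 inhibitors of cytokine receptor signalling, all tested, 4 rose and none was called lower in dasatinib 16x against drug-free cells, with a median log2 change of 0.12. Against DMSO 16x, 7 rose and 6 fell, with a median of 0.12, and Socs3, another inhibitor of the SOCS family, was the lowest at -1.47 ± 0.09 (adjusted p = 1.65e-07). Cish, an inhibitor that STAT5 is known to induce, had 72.9, 54.7 and 63.4 CPM in dasatinib 16x libraries A, B and C, 38.2 to 42.1 CPM in dasatinib 1x and 33.5 to 37.1 CPM in drug-free libraries, a change of 0.84 ± 0.08 (adjusted p = 0.000473). Socs1, a direct inhibitor of JAK kinases, had 24.2, 22.8 and 23.1 CPM in dasatinib 16x, 11.7 to 13.1 CPM in dasatinib 1x and 13.5 to 15.4 CPM in drug-free libraries, a change of 0.73 ± 0.07 (adjusted p = 0.000287). For both genes the dasatinib 16x libraries lay above all others, and against dasatinib 1x cells they rose as well, by 0.67 ± 0.09 for Cish (adjusted p = 0.0094) and 0.91 ± 0.07 for Socs1 (adjusted p = 0.00294). Socs7 (0.18 ± 0.04, adjusted p = 0.0171) and the ubiquitin ligase gene Cblb (0.16 ± 0.04, adjusted p = 0.0289) were the other inhibitors called against drug-free cells. Of 17 other settings, 8 lost the call of Cblb and 1 that of Socs7. The call of Cish against dasatinib 1x cells was lost in 2 of 15 other settings.

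**Figure D5:**
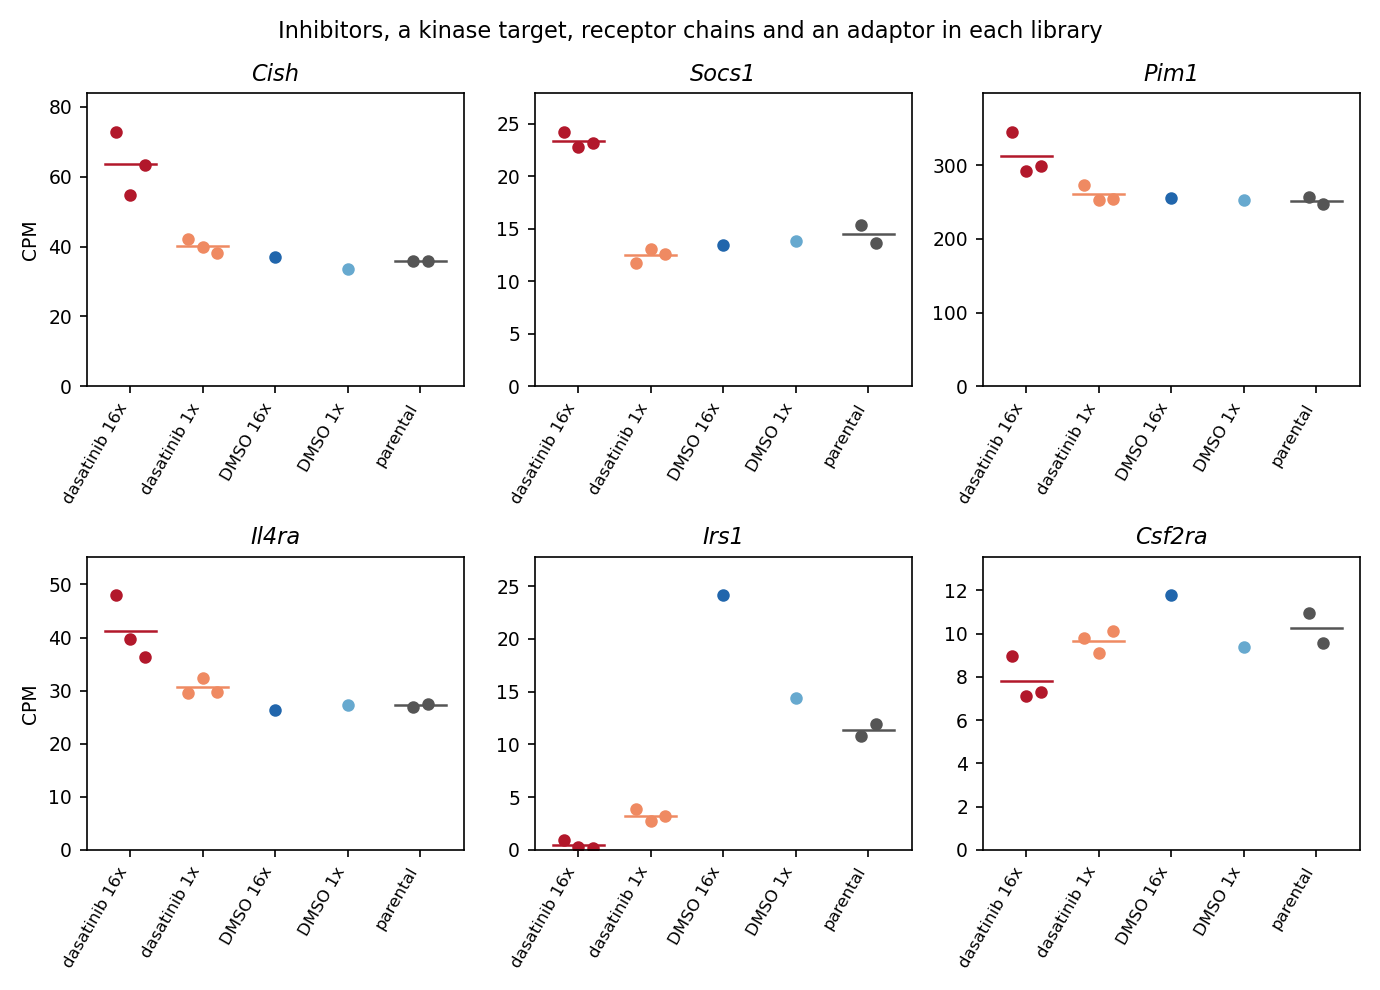
Level in CPM, on vertical axes from 0, of 6 pathway genes with 1 point per library and a line at the mean of groups with more than 1 library. Cish, Socs1, Pim1 and Il4ra are highest in the 3 dasatinib 16x libraries, Irs1 is lowest in them and highest in DMSO 16x, and Csf2ra spans 7.13 to 11.8 CPM.

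Of 16 genes that STAT5 is known to induce, 15 were tested, and 5 rose and 2 fell in dasatinib 16x against drug-free cells, with a median of 0.01. Against DMSO 16x, 6 rose and 7 fell, with a median of -0.14. The list summed to 2266 to 2279 CPM in dasatinib 16x, 1944 to 1990 CPM in dasatinib 1x, 2448 CPM in DMSO 16x, 2109 CPM in DMSO 1x and 1855 to 1879 CPM in parental libraries, so the highest sum was that of DMSO 16x. Cish and Socs1 are among those that rose against drug-free cells, as are the survival kinase genes Pim1 (0.30 ± 0.06, adjusted p = 0.00814) and Pim3 (0.26 ± 0.05, adjusted p = 0.00956). Those that fell were Mcl1, a survival gene of the BCL2 family (-0.10 ± 0.03, adjusted p = 0.0254), and Spred2, an inhibitor of the RAS and ERK pathway (-0.17 ± 0.04, adjusted p = 0.0230). Of 8 other JAK and STAT genes 1 rose, Stat2 (0.17 ± 0.05, adjusted p = 0.0433), a call that 11 of 17 other settings lost. Stat5b gave 0.16 ± 0.05 (adjusted p = 0.0511) and Stat5a 0.22 ± 0.08 (adjusted p = 0.0795).

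Among 35 other cytokine receptor chains, 23 were tested, and 3 rose and 4 fell in dasatinib 16x cells, with a median of -0.01. Il4ra, the IL-4 receptor chain that uses the common γ chain, had 48.0, 39.6 and 36.3 CPM in dasatinib 16x libraries A, B and C, 29.6 to 32.4 CPM in dasatinib 1x and 26.4 to 27.4 CPM in drug-free libraries, a change of 0.61 ± 0.08 (adjusted p = 0.00188). Il12rb1, a chain of the IL-12 receptor, had 4.06, 1.49 and 2.05 CPM in dasatinib 16x libraries, 0.379 to 0.856 CPM in dasatinib 1x and 0.382 to 0.724 CPM in drug-free ones, a change of 2.19 ± 0.40 (adjusted p = 0.00693). For both genes all dasatinib 16x libraries were above all others. Ifngr1, an interferon γ receptor chain, rose (0.38 ± 0.07, adjusted p = 0.00664), and Ifnar1, a type I interferon receptor chain, fell (-0.32 ± 0.04, adjusted p = 0.000813).

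Of 19 ligands of these receptors, 8 had no count in any library, Il3 and Csf2 among them, and 5 passed the filter. All 19 summed to 52.2 to 60.4 CPM in dasatinib 16x, 46.6 to 50.3 CPM in dasatinib 1x and 34.6 to 52.6 CPM in drug-free libraries. Flt3l, the ligand of the FLT3 receptor, rose (0.95 ± 0.19, adjusted p = 0.00956), as did Osm, oncostatin M (0.52 ± 0.11, adjusted p = 0.0135). Of 17 other settings, 2 lost the call of Osm. Tslp had at most 0.0245 CPM and Il7 at most 0.859 CPM, the highest being DMSO 16x.

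Among 15 adaptors that link cytokine receptors to other pathways, 14 were tested, and 2 rose and 4 fell, with a median of -0.03. Irs1, an insulin receptor substrate, had 0.971, 0.294 and 0.167 CPM in dasatinib 16x libraries A, B and C, 2.69 to 3.82 CPM in dasatinib 1x and 10.8 to 24.1 CPM in drug-free libraries. The 3 classes did not overlap, and the change in dasatinib 16x against drug-free was -4.98 ± 0.55 (adjusted p = 0.000799) and in dasatinib 1x -2.24 ± 0.46 (adjusted p = 0.0457). Gab1 fell as well (-4.10 ± 0.83, adjusted p = 0.0118), and Crkl (-0.13 ± 0.03, adjusted p = 0.0294) and the PI3-kinase subunit gene Pik3r1 (-0.27 ± 0.07, adjusted p = 0.033) fell by less. Of 17 other settings, 10 lost the call of Irs1 in dasatinib 1x cells, 7 that of Crkl, 6 that of Pik3r1 and 1 that of Gab1.

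Of 12 genes linked to IL-7 signalling and FOXO1, 1 rose and 4 fell, with a median of -0.22. Runx1 (-0.28 ± 0.04, adjusted p = 0.00182), Ets1 (-0.65 ± 0.11, adjusted p = 0.00526) and Pax5 (-0.39 ± 0.07, adjusted p = 0.005), transcription factors of lymphoid cells, fell, and Gfi1b (0.22 ± 0.04, adjusted p = 0.00483) rose. The markers of pro-B and pre-B cells had 6 of 14 lower and none called higher against drug-free cells, with a median of -0.22, Rag1 (-3.46 ± 0.53, adjusted p = 0.00358) and Cd79b (-0.34 ± 0.08, adjusted p = 0.0192) among them. The call of Cd79b was lost in 4 of 17 other settings. Against DMSO 16x, 7 fell and 2 rose, Dntt (5.43 ± 1.08, adjusted p = 0.0142) and Blnk (0.49 ± 0.11, adjusted p = 0.0129). Of the 3 tested T cell markers Cd5 fell (-1.23 ± 0.34, adjusted p = 0.0353), a call lost in 7 of 17 other settings.

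Csf2rb and Csf2rb2 are also used by myeloid cells and mast cells, so their markers are given beside them. The 12 myeloid markers summed to 10.3 to 18.8 CPM in dasatinib 16x, 9.04 to 9.67 CPM in dasatinib 1x and 6.88 to 8.37 CPM in drug-free libraries. Fcgr3 was the only tested one called, at 1.50 ± 0.40 (adjusted p = 0.0343), with 10.5, 6.64 and 5.50 CPM in dasatinib 16x libraries A, B and C and 1.12 to 4.45 CPM in drug-free ones, and 9 of 17 other settings lost that call. Elane, S100a8, S100a9, Cebpa and Cebpe had no count in any library. The 8 mast cell and basophil markers summed to at most 0.0715 CPM in any library, with 5 of them at 0 throughout. Without dasatinib 16x A the change of Csf2rb2 was 1.12 ± 0.09. The part of these markers in the result was not tested.

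By likeness over the 10 libraries, measured as the root mean square difference of centred log2 CPM, Tyro3 (0.14) and Acox3 (0.16) were closest to Csf2rb2, whose own range was 1.31. Tyro3 averaged 11.5 CPM in dasatinib 16x, 5.81 CPM in dasatinib 1x and 5.93 CPM in drug-free libraries, and Acox3 averaged 75.2 CPM in dasatinib 16x, 54.3 CPM in dasatinib 1x and 43.0 CPM in drug-free libraries. Galnt14 (0.083) and Lactb (0.084) were closest to Csf2rb, with a range of 0.77, and Ndufs1 and Nf2 (0.024 and 0.025) to Il2rg, with a range of 0.30.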

How the data were processed

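The counts per gene were deposited by the authors as a single table of 10 libraries and are used as raw counts. Per the submitters' processing notes, the tools were CASAVA 1.7.0, Trimmomatic 0.33, TopHat2 2.0.12, BWA 0.7.10, SAMtools, HTSeq 0.6.1 and DESeq, with mm9. Reads of overlapping and antisense genes cannot be told apart, because whether strand was used is not given in the sources used here.

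Tests were edgeR's quasi-likelihood test in its robust form (version 4.0.16, R 4.3.3) with TMM scaling and filterByExpr (minimum count 10), adjusted by Benjamini and Hochberg at 0.05 over all tested genes. A fit of 3 classes (dasatinib 16x, dasatinib 1x, drug-free) tested 12282 genes with a biological coefficient of variation of 15.3% on 7 residual degrees of freedom. A fit of the 5 groups tested 12993 genes at 7.29% on 5. Both were also run on simulated counts with known changes, in which all libraries varied alike. That check left out differences between parental and DMSO libraries, so it cannot vouch for the 3-class fit where these differ. An SE is the size of the log2 change divided by the square root of its F statistic. Log2 CPM used a prior count of 2. All pairs of libraries within a group differed by more than sampling noise, but unequally. The chi-square per gene was 1.89 for the parental pair, 3.09 for dasatinib 1x A and C, and 11.1 to 16.6 for the other pairs. Each fit pools these spreads over its groups.

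Other settings were RLE scaling, no filter, DESeq2 1.42.0, leaving out each library, a block by replicate letter, other drug-free references and the fit of 5 groups. The other references were run in the fit of 5 groups, so they changed the spread as well as the reference. The block had the parental libraries alone as its drug-free reference. The members and lists were chosen with earlier results of these data known. The naming rule took all 10 members, up to 4 called genes of each list in dasatinib 16x against drug-free and up to 2 in the other class comparisons, and 2 like genes for each member called in the 3-class fit; genes named outside it were chosen after their values were seen. Promoter sequences are from RefSeq and exon lengths and transcripts from GENCODE vM21, both GRCm38, and all matches were by symbol.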

Additional observations from a re-analysis of the deposited data

Results flagged for a closer look

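In the drug-free class Csf2rb stood out for a sample far from the others: the DMSO 16x library, at 132 CPM against 114 to 116 CPM in the other drug-free libraries, was the highest, with a gap of 0.86 of the range of these 4 libraries. By chance alone about 5% of groups of like libraries give such a flag, and each of the 10 genes was examined. The drug-free class mixes parental and DMSO libraries, so that rate need not hold for it. For Csf2rb2 the step change under dasatinib exceeded the step change in DMSO by 1.10 on the log2 scale (adjusted p = 0.00119, edgeR), and for Crlf2 it did so by 0.76 (adjusted p = 0.0174, edgeR). Each difference rests on the single DMSO 16x library and the single DMSO 1x library.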

How the results depend on the processing

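Over the 80 results of the 10 genes (10 genes in 8 comparisons), 1080 values under other settings were computed: 992 kept their direction and their side of the threshold, 26 lost a call, 43 gained one and 19 changed sign, none of those past the threshold. For 36 results of other named genes, 483 of 596 values kept the call, 113 lost it and 0 changed sign. The number of genes called in dasatinib 16x against drug-free (1980) was 3282 with the parental libraries alone as reference, 4673 with both DMSO libraries alone and 4665 with the mean of the parental, DMSO 1x and DMSO 16x groups, and 1005 (without dasatinib 16x C) to 2765 (without DMSO 16x) on leaving out a library, with 1058 without dasatinib 16x A and 1302 without DMSO 1x. For dasatinib 1x against drug-free (241) it was 875 by DESeq2, 733 with parental alone, 4307 with both DMSO libraries alone, 3580 with the mean of the 3 groups, and 17 to 516 on leaving out a library (17, 18 and 36 without dasatinib 1x B, A and C, 65 without DMSO 1x, 516 without DMSO 16x). For dasatinib 16x against 1x (262) it was 754 by DESeq2, 1686 in the fit of 5 groups, and 41 to 978 on leaving out a library (41, 45 and 55 without dasatinib 1x C, A and B, 88 and 155 without dasatinib 16x C and A, 135 without DMSO 1x, 978 without DMSO 16x). For DMSO 1x against parental (787) it was 120 and 166 without parental B and A, and 1260 and 1393 without dasatinib 16x B and A. For the difference of step changes (826) it was 541 to 1232 on leaving out a library, with 541, 542 and 543 without dasatinib 1x C, parental B and parental A. The replicate letters were not used as pairs in the main tests. Deviations of the same letter in dasatinib 16x and 1x correlated at 0.065 (A), 0.027 (B) and 0.052 (C), all under 0.1. Between dasatinib 16x and 1x each library still correlated best with its own letter. With the parental libraries this held for dasatinib 16x A and B and dasatinib 1x B. It did not hold for dasatinib 1x A, at -0.009 with parental A and 0.009 with parental B. With so few libraries this check cannot decide whether the letters pair. The replicate block used the lettered libraries only, so its drug-free reference was the parental libraries alone. With it 2735, 536 and 1535 genes were called in dasatinib 16x against parental, 1x against parental and 16x against 1x. It called Il7r lower in 16x against parental and against 1x (-0.72 and -0.79) and Il3ra lower in both (-0.85 and -0.86). Il2ra was called lower in 16x against parental (-0.89), and the call of Il2rg was lost (adjusted p = 0.182). Parental alone without the block gave -0.77 for Il7r, -0.96 for Il3ra and -0.99 for Il2ra in dasatinib 16x, and Il2rg was not called (adjusted p = 0.129). These values thus do not show what the block alone did. Signs changed, without a call, as follows. In dasatinib 16x against drug-free, Il7r was 0.16 and Il3ra 0.73 with both DMSO libraries alone, and Il3ra was 0.17 with the mean of the 3 groups. In dasatinib 1x against drug-free, Il3ra was -0.15 with parental alone, and Jak2 was 0.0419 with the block and 0.0406 with parental alone, and -0.0567 to 0.0053 on leaving out a library. On leaving out a library, Il2rg was -0.0254 to 0.0406 and Il2ra -0.12 to 0.31 in dasatinib 16x against 1x, Il2ra -0.10 to 0.32 and Jak1 -0.0049 to 0.022 in dasatinib 16x against DMSO 16x, Jak3 -0.0174 to 0.016 in dasatinib 1x against DMSO 1x (0.0013 with no filter), and Jak3 -0.0521 to 0.0984 in DMSO 16x against parental. With both DMSO libraries alone, or with the mean of the 3 groups, dasatinib 1x was called higher for Il7r, Il3ra, Crlf2, Il2rg and Csf2rb2. These settings used the fit of 5 groups. Of 12993 tested genes they called 2185 and 1921 higher and 2122 and 1659 lower. In the same settings dasatinib 16x was newly called higher for Crlf2 and lower for Jak2, beside 2448 and 2515 tested genes called higher and 2225 and 2150 lower. The mean of the 3 groups also called Jak1 lower in dasatinib 1x. The causes were not tested. Limits: Il3ra and Il2ra rest on 35 to 344 counts a library, and each DMSO group on 1 library.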
